A study of Mus musculus with 6 samples.

Results

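The genes described here encode the enzymes and regulators that build, modify and break down sphingolipids, and those that make or remove the serine headgroup of phosphatidylserine. They were chosen by name from the deposited count table, as 31 listed symbols plus every symbol of the form Cers1 to Cers6, which gave 37 of the 24391 genes of the table. They were measured by sequencing of poly(A) RNA from Neuro2a cells, a line derived from a mouse neuroblastoma. The 3 control libraries came from cells given vehicle and the 3 D-serine libraries from cells given 5 mM D-serine, each for 18 h. For this period the medium of both groups, which contained serum, was the one called D-MEM(-SG) in the labels. Nothing in the labels says whether the 3 libraries of a group came from separate cultures, so p-values measure the spread between these libraries, which may be technical, and all of them come from 1 cell line.

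Sphingolipid synthesis starts in the endoplasmic reticulum, where serine palmitoyltransferase joins L-serine to a fatty acyl-CoA. The product is reduced, acylated by ceramide synthases and desaturated to ceramide, from which sphingomyelin and glycosphingolipids, including the gangliosides that neuronal membranes are rich in, are made. Phosphatidylserine synthases use L-serine in another way, by exchanging it for the headgroup of phosphatidylcholine or phosphatidylethanolamine. D-serine, the mirror image of L-serine, is best known for its action, together with glutamate, at NMDA receptors.

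Total counts lay between 32518483 and 40024265 per library, and 13366 genes passed the filter on low counts and were tested. The 9 markers of sympathoadrenal neuroblasts that are reported summed to between 397 and 426 RPKM over the 6 libraries. RPKM are counts per kilobase of exon, scaled to library size. These markers were reported only if they passed the filter on low counts, a condition not set for the markers of other cells. Among these 9, Th and Dbh, which make catecholamines, stood at only 0.85 and 0.67 RPKM in control. The 14 markers of glia, fibroblasts, leukocytes and endothelium summed to 4.62 to 5.13 RPKM, with Aqp4 and Lum at 0 in every library. Of these 14, 5 were tested, and Mbp (2.07 RPKM) and Pecam1 (1.04 RPKM) were highest in control, above Th and Dbh. D-serine replicate 1 stood apart from its group, with a chi-square per degree of freedom of 13.9 and 17.7 against the other two, where all other pairs within a group gave 3.88 to 6.54. In that library the level of a gene relative to the other libraries also fell most with gene length (slope -0.0717 log2 units per doubling of length, against -0.0040 to 0.0356 in the others). Calls of members that changed without it are given both ways.

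Of the 37 genes, 34 passed the filter on low counts, and 3 of these were changed by D-serine at an adjusted p under 0.05 in edgeR's quasi-likelihood test. All 3 were lower: Ptdss1, a phosphatidylserine synthase, Smpd3, a neutral sphingomyelinase, and Sgpl1, which cleaves sphingosine 1-phosphate. They make up 8.82% of the tested members, near the background of 9.74% over all tested genes (4.84% higher and 4.9% lower), so the share of changed genes does not set this pathway apart. The median log2 fold change was -0.031 over the members, with 15 above and 19 below 0, and 0.005 over all tested genes. Sizes were small: apart from Sphk1, which is barely expressed, every tested member lay between -0.24 and 0.21 on the log2 scale. In 12 members the control and D-serine libraries did not overlap (35.3%, background 32.9%), 4 of them higher with D-serine (background 16.2%) and 8 lower (background 16.6%). An unadjusted p under 0.05 was reached by 10 members (29.4%, background 28.2%). Sphk1, which passed the filter through its D-serine libraries, is among them (edgeR unadjusted p = 0.0482).

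The count of called members, like the count over all genes, rested on individual libraries. Without control replicate 1, 2 or 3 edgeR called 0 members. In the same fits the calls over all genes dropped to 125, 68 and 453 (background 0.921%, 0.501% and 3.34%), so the loss was not particular to the members. Without D-serine replicate 3 only Smpd3 passed (background 2.15%), and without D-serine replicate 2 there were 4 members (background 11.6%), Sgms1 being added. Without D-serine replicate 1 there were 5 (background 12.5%), of which 4 were lower, with Cers2 added, and 1 was higher, Ptdss2. DESeq2 gave 4 (background 12.3%), again with Sgms1, and limma-voom gave 3 (background 9.43%). Over all genes the split of calls depended on the scaling, with 647 higher and 655 lower as reported but 914 and 412 under upper quartile scaling (background 9.92%), where the 3 called members were Ptdss1 and Smpd3, lower, and Ptdss2, higher.

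**Figure D1:**
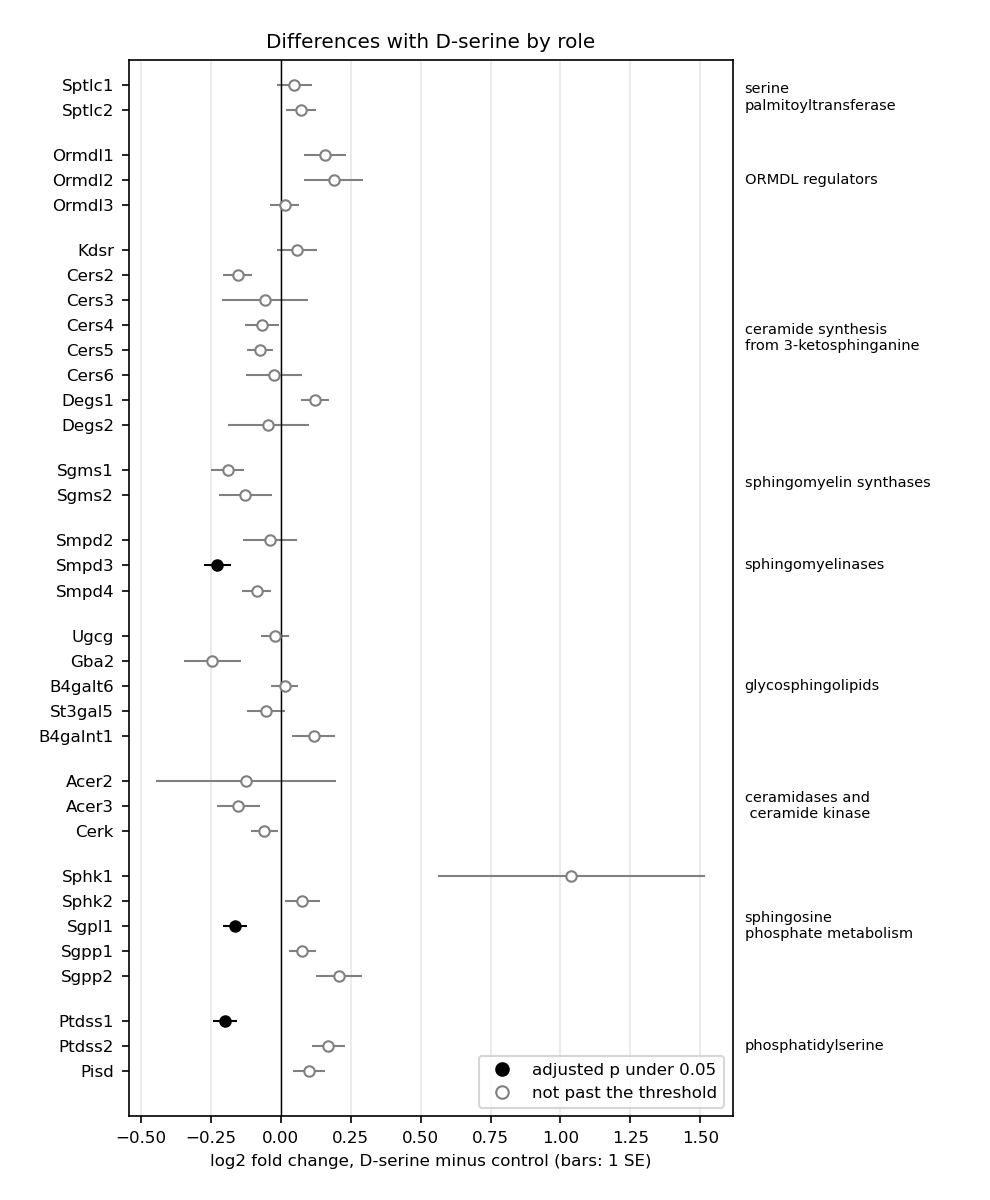
Log2 fold change of each of the 34 tested members (x axis, D-serine minus control; bars are 1 standard error), grouped by role. The 3 filled points, Smpd3, Sgpl1 and Ptdss1, passed the threshold and lie between -0.23 and -0.16; Sphk1, at 1.04 with a standard error of 0.478, is the only member beyond 0.25 in either direction.

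In phosphatidylserine metabolism the pair of synthases differed in direction, one lower in all D-serine libraries and the other higher. Ptdss1 (chromosome 13, 67033766 to 67099337, plus strand, as deposited), which takes its phosphatidyl group mainly from phosphatidylcholine, stood at 110.6, 109.7 and 114 CPM (counts scaled to library size) in control replicates 1 to 3 and at 96.8, 98.0 and 96.3 CPM with D-serine. All D-serine libraries were below all control libraries, and the fall, to 0.870 of control, was larger than the spread within either group (log2 fold change -0.20, SE 0.043, edgeR adjusted p = 0.0165; means 111 ± 2.31 against 97.0 ± 0.879 CPM, SD, n = 3 each). Without control replicate 1, 2 or 3, or D-serine replicate 3, the adjusted p lay between 0.0644 and 0.0713. Without D-serine replicate 1 it was 0.00421 at a log2 fold change of -0.20. The gene shares 138 exonic bases with Mterf3 and 87 with 4933433G19Rik, both on the opposite strand.

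Ptdss2 (chromosome 7, 148317185 to 148342053, plus strand, as deposited), the synthase that uses phosphatidylethanolamine, stood at 34.3, 36.1 and 37.6 CPM in control and at 39.0, 41.0 and 41.6 CPM with D-serine. Here the D-serine libraries were all above the control libraries, but the difference did not pass the threshold (log2 fold change 0.17, SE 0.058, edgeR adjusted p = 0.0805). It passed without D-serine replicate 1 (0.20, adjusted p = 0.0383) and under upper quartile scaling (0.20, adjusted p = 0.0457) or library totals (0.20, adjusted p = 0.0444). Pisd (chromosome 5, 33078962 to 33128275, minus strand, as deposited), the mitochondrial decarboxylase that turns phosphatidylserine into phosphatidylethanolamine, stood at 51.1, 50.5 and 48.5 CPM in control and 57.6, 51.3 and 52.2 CPM with D-serine. Its log2 fold change of 0.10 (SE 0.058) did not pass (edgeR adjusted p = 0.267), and its highest value belongs to D-serine replicate 1, without which the log2 fold change was 0.048 (adjusted p = 0.611).

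The ratio of Ptdss2 to Ptdss1, in counts per kilobase, does not depend on how libraries are scaled to each other. Control libraries had ratios of 0.489, 0.519 and 0.520 and D-serine libraries 0.635, 0.660 and 0.682. The groups could not overlap here, because all D-serine libraries were below control for Ptdss1 and above it for Ptdss2. The ratio therefore restates those differences and adds no further support. The share of Ptdss2 in the summed level of the synthase pair was 33.7% ± 0.777 in control and 39.7% ± 0.858 with D-serine (SD, n = 3 each). An exact two-sided permutation test gave p = 0.1, the smallest that 3 libraries against 3 allow, and 0.5 after Benjamini-Hochberg adjustment over the 5 isoenzyme ratios compared. The unadjusted value was fixed by the same separation. The fitted log2 change of this ratio was 0.37 and lay between 0.34 and 0.40 in 17 alternative fits, including those without each library. Fits that changed only the scaling were bound to leave it nearly unchanged. The other 4 ratios overlapped between the groups. Sptlc2 to Sptlc1 was 1.70 ± 0.0549 in control and 1.73 ± 0.102 with D-serine, Sgpp2 to Sgpp1 0.0857 ± 0.00371 and 0.0940 ± 0.0097, Cers2 to Cers5 0.875 ± 0.0402 and 0.829 ± 0.0316, and Sgms1 to Sgms2 4.25 ± 0.387 and 4.05 ± 0.27 (SD, n = 3 each; exact permutation p between 0.2 and 0.6).

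**Figure D2:**
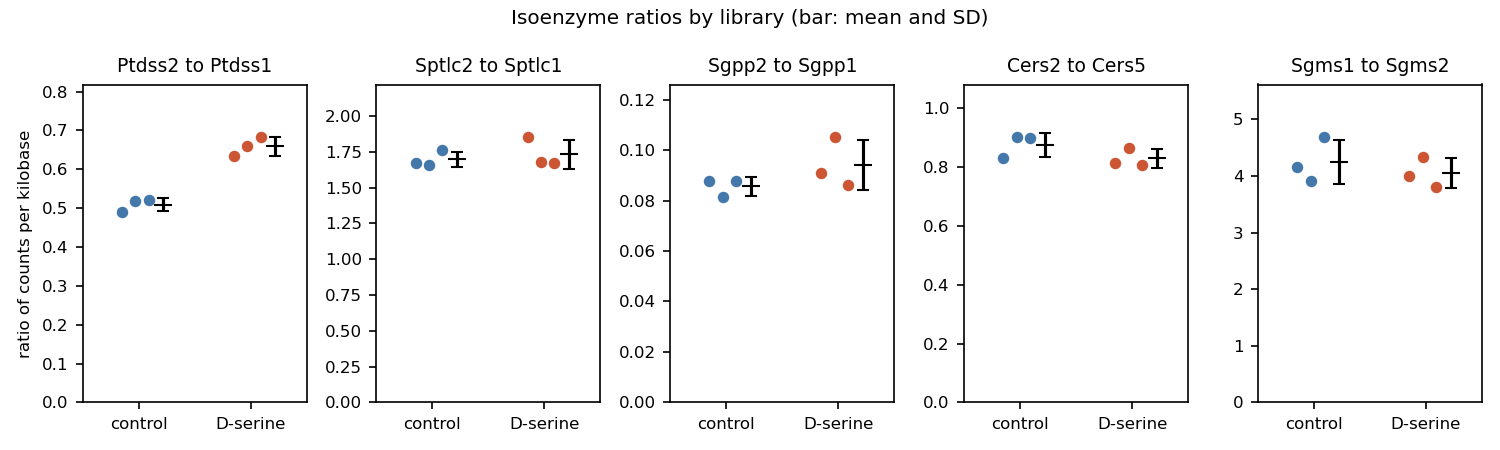
Ratio of counts per kilobase between 5 pairs of related enzymes in each library (y axis from 0; blue control, orange D-serine, replicates 1 to 3 from left to right; bars are mean and SD). For Ptdss2 to Ptdss1 the control libraries reach at most 0.520 and the D-serine libraries start at 0.635, a gap that the levels of both genes already imply. In the other panels the points of the groups overlap.

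Serine palmitoyltransferase, the enzyme that brings L-serine into sphingolipids, showed no detectable difference. Its common subunit Sptlc1 (chromosome 13, 53428119 to 53472730, minus strand, as deposited) was at 23.8, 24.9 and 24.2 CPM in control and 24.7, 26.0 and 24.8 CPM with D-serine (log2 fold change 0.048, SE 0.063, edgeR adjusted p = 0.655). The catalytic subunit Sptlc2 (chromosome 12, 88648839 to 88729180, minus strand, as deposited) was at 58.3, 60.7 and 62.4 CPM in control and 66.6, 63.8 and 60.5 CPM with D-serine (0.073, SE 0.054, edgeR adjusted p = 0.400). Without D-serine replicate 1, its highest library, the value was 0.038 (adjusted p = 0.691). The ranges of the groups overlap for both subunits. Sptlc3, an alternative catalytic subunit, had a count of 0 in all 6 libraries, where a count of 0 allows up to 3 counts, or 0.0745 to 0.0930 CPM. Per length, Sptlc2 (16.1 ± 0.551 RPKM in control) lay above Sptlc1 (9.47 ± 0.219 RPKM).

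The ORMDL proteins restrain serine palmitoyltransferase when ceramide is plentiful. None of the 3 genes passed the threshold in edgeR, DESeq2 or limma-voom (background 9.74%, 12.3% and 9.43%). None reached an unadjusted p under 0.05 in edgeR (background 28.2%). Ormdl3 supplied most of their summed level, 72.9% ± 1.87 in control and 70.8% ± 0.864 with D-serine, and its log2 fold change was 0.014 (SE 0.052), or -0.015 (adjusted p = 0.879) without D-serine replicate 1. Ormdl1 had 0.16 (SE 0.075, edgeR adjusted p = 0.189) and Ormdl2 0.19 (SE 0.105, edgeR adjusted p = 0.258). Because 75.9% of the exonic length of Ormdl2 is shared with Dnajc14 on the opposite strand and the strand setting of the counting is not stated, its counts are uncertain. The same holds, over smaller shares, for Degs2 (13.6% with Evl), Sphk2 (12.9% with Dbp) and Sgpp2 (6.63% with Farsb). It also holds for Gba2 (3.76% with Creb3 and 3.68% with Rgp1) and Cers2 (2.18% with Setdb1).

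Between serine palmitoyltransferase and ceramide, 8 of 9 genes were tested and 0 passed in edgeR (background 9.74%). An unadjusted p under 0.05 was reached by 2 (background 28.2%). DESeq2 and limma-voom likewise called 0 (background 12.3% and 9.43%). Kdsr, the reductase of the next step, had a log2 fold change of 0.058 (SE 0.072). Ceramide synthases differ in the chain length they attach. Cers5, which prefers long chains, made up 45.9% ± 0.757 of their summed level in control, and Cers2, which makes very-long-chain ceramides, 40.1% ± 1.22. Cers4, Cers6 and Cers3 followed at 7.07%, 5.81% and 1.11%. Cers2 stood at 86.2, 92.4 and 92.1 CPM in control and 83.1, 82.8 and 77.3 CPM with D-serine, without overlap, but the adjusted p was above the threshold (log2 fold change -0.16, SE 0.051, edgeR adjusted p = 0.069). It passed without D-serine replicate 1 (-0.17, adjusted p = 0.0227) and when each library's trend on gene length was removed (-0.18, adjusted p = 0.00761). The other 4 tested synthases had log2 fold changes between -0.075 and -0.024, with adjusted p of 0.300 or more, and Cers6 turned from -0.024 to 0.10 (adjusted p = 0.392) without D-serine replicate 1. Cers1, known as the synthase of neurons, is listed at 0 in every library. All of its 2724 exonic bases are shared with Gdf1 on the same strand, which is also listed at 0, so these counts do not show whether Cers1 is expressed.

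Degs1, which introduces the double bond that turns dihydroceramide into ceramide, stood at 85.8, 89.9 and 89.7 CPM in control and 99.97, 91.4 and 97.5 CPM with D-serine. The groups do not overlap, yet the gap between the highest control and the lowest D-serine library is small, and the difference missed the threshold (log2 fold change 0.12, SE 0.049, edgeR adjusted p = 0.127). Without D-serine replicate 1 it was 0.094 (adjusted p = 0.193). Its relative Degs2 was expressed far less per length (2.45 against 44.1 RPKM in control) and had a log2 fold change of -0.045 (SE 0.144).

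**Figure D3:**
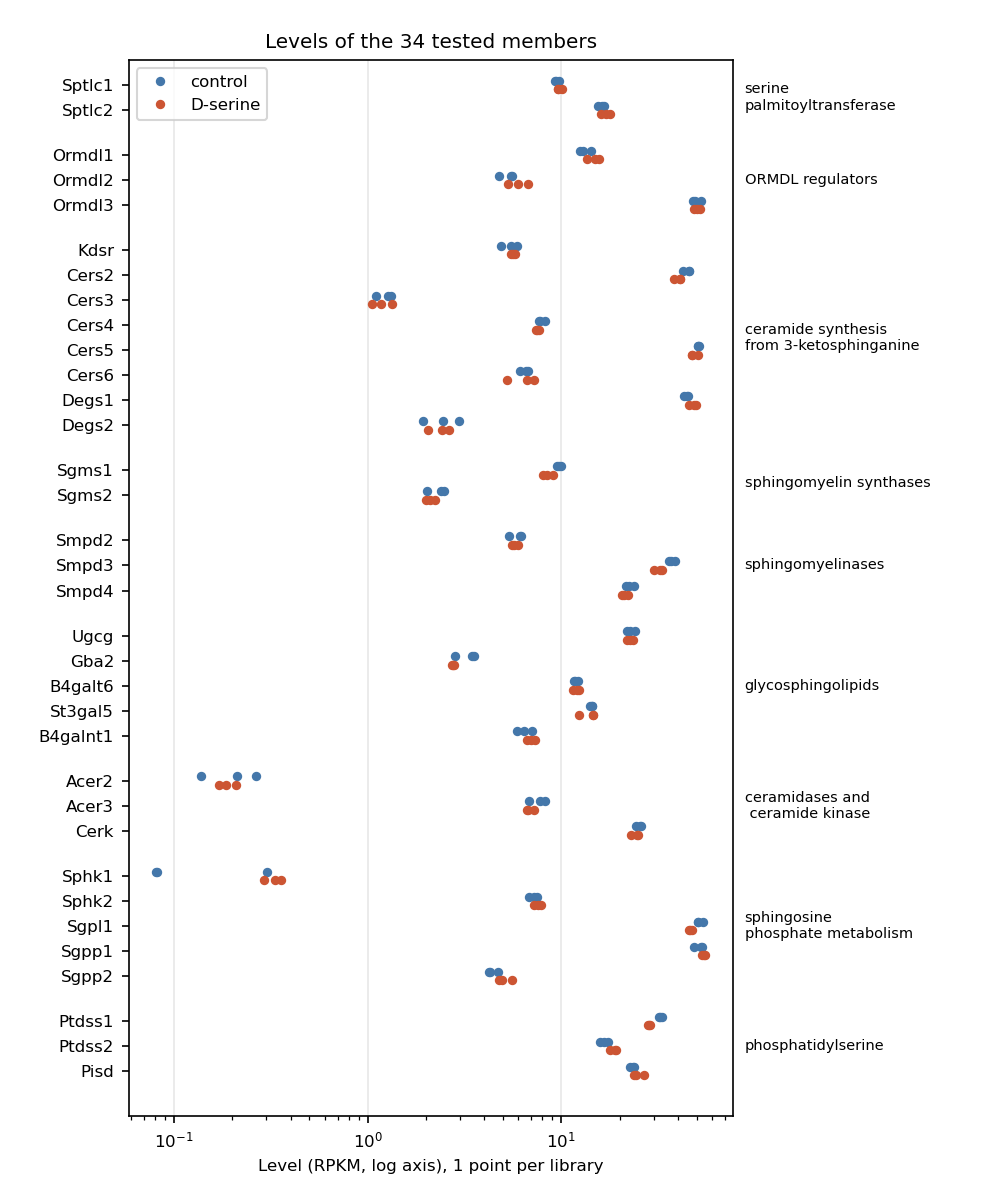
Level of each tested member per length (x axis, RPKM on a log scale; 1 point per library, blue control, orange D-serine), grouped by role. Sgpl1, Sgpp1, Cers5 and Ormdl3 are highest at 49.8 to 51.9 RPKM in control, and Acer2 and Sphk1 lowest at 0.206 and 0.156 RPKM.

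Smpd3 (chromosome 8, 108776448 to 108861888, minus strand, as deposited), a neutral sphingomyelinase of the inner membrane leaflet that releases ceramide, fell by 14.6%. It stood at 185, 189.9 and 200.2 CPM in control and 154.6, 166 and 170.7 CPM with D-serine. The groups do not overlap, and D-serine replicate 1 is the lowest library (log2 fold change -0.23, SE 0.049, edgeR adjusted p = 0.0167; means 192 ± 7.73 against 164 ± 8.26 CPM, SD, n = 3 each). Without D-serine replicate 1 the log2 fold change was -0.19 (adjusted p = 0.00418), and with the length trend removed -0.17 (adjusted p = 0.00452). Without control replicate 1, 2 or 3 the adjusted p was 0.0557, 0.0719 and 0.0664. The other sphingomyelinases, Smpd4 and Smpd2, had log2 fold changes of -0.087 (SE 0.051) and -0.039 (SE 0.097) with edgeR adjusted p of 0.282 and 0.832. Smpd3 supplied 56.7% ± 2.29 of the summed level of the 3 genes in control and 54.1% ± 0.905 with D-serine.

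In the opposite reaction, sphingomyelin synthase Sgms1 was measured at 45.2, 44.1 and 43.2 CPM in control and 36.5, 41.3 and 38.4 CPM with D-serine. All D-serine libraries were lower, but the difference was just outside the threshold (log2 fold change -0.19, SE 0.059, edgeR adjusted p = 0.0594). DESeq2 gave an adjusted p of 0.0451, and without D-serine replicate 1 edgeR gave -0.15 at 0.103. Sgms2, at a lower level than Sgms1 per length (2.31 against 9.73 RPKM in control), had -0.13 (SE 0.094, edgeR adjusted p = 0.403).

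Of the 5 tested members of glycosphingolipid metabolism, 4 are on the route from ceramide to gangliosides and 1 degrades glucosylceramide. None passed the threshold in edgeR, DESeq2 or limma-voom (background 9.74%, 12.3% and 9.43%). The degrading enzyme, Gba2, alone had an unadjusted p under 0.05 (1 of 5, background 28.2%). Ugcg, which adds glucose to ceramide, had a log2 fold change of -0.022 (SE 0.051), and B4galt6, which makes lactosylceramide, 0.014 (SE 0.049). Its relative B4galt5, outside the members, was higher per length (27.4 against 11.9 RPKM in control). B4galt5 was lower in all D-serine libraries but did not pass (-0.14, SE 0.047, edgeR adjusted p = 0.069). St3gal5, the GM3 synthase, had -0.054 (SE 0.069) and B4galnt1, the GM2/GD2 synthase, 0.12 (SE 0.078). Gba2, a glucosylceramidase outside the lysosome, was at 12.6, 12.3 and 9.97 CPM in control and 9.82, 9.90 and 9.61 CPM with D-serine. Control replicate 3 lies beside the D-serine libraries (log2 fold change -0.24, SE 0.102, edgeR adjusted p = 0.137). Without that library the value was -0.34 at an adjusted p of 0.0669. Ugt8a, the galactosyltransferase of myelin lipids, had 2 counts in control replicate 2 and 0 elsewhere and was not tested.

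Sgpl1 (chromosome 10, 60561390 to 60610413, minus strand, as deposited), the lyase that irreversibly ends the pathway by cleaving sphingosine 1-phosphate, fell by 10.7%. It was the most highly expressed member per length, at 51.9 ± 1.54 RPKM in control and 46.3 ± 0.735 RPKM with D-serine (SD, n = 3 each). Control libraries read 209.7, 210.7 and 221 CPM and D-serine libraries 188, 194 and 190.8 CPM, without overlap (log2 fold change -0.16, SE 0.042, edgeR adjusted p = 0.0306). The call was lost without control replicate 1, 2 or 3 or D-serine replicate 3 (adjusted p 0.0820 to 0.109), under upper quartile scaling (-0.13, adjusted p = 0.0595) and with library totals (-0.13, adjusted p = 0.0552). It held without D-serine replicate 1 (-0.15, adjusted p = 0.0104) and with the length trend removed (-0.14, adjusted p = 0.00799).

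The phosphatases that return sphingosine 1-phosphate to sphingosine did not pass. Sgpp1, nearly as abundant as Sgpl1 at 51.5 ± 2.69 RPKM in control, had a log2 fold change of 0.077 (SE 0.047, edgeR adjusted p = 0.305). Sgpp2 was at 17.0, 17.1 and 18.8 CPM in control and 19.7, 22.4 and 19.1 CPM with D-serine, narrowly without overlap (0.21, SE 0.081, edgeR adjusted p = 0.118). Of the kinases that make sphingosine 1-phosphate, Sphk2 had 0.076 (SE 0.063, edgeR adjusted p = 0.459). Sphk1 had only 6, 7 and 26 counts in the control libraries and 30, 30 and 27 with D-serine, so it passed the filter through the D-serine libraries, and control replicate 3 lies close to them. Its log2 fold change of 1.04 (SE 0.478, edgeR adjusted p = 0.173) therefore rests on the other two control libraries. The alkaline ceramidases Acer3 and Acer2 had -0.15 (SE 0.076) and -0.12 (SE 0.322), and the ceramide kinase Cerk -0.059 (SE 0.048), with edgeR adjusted p of 0.207 to 0.840.

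**Figure D4:**
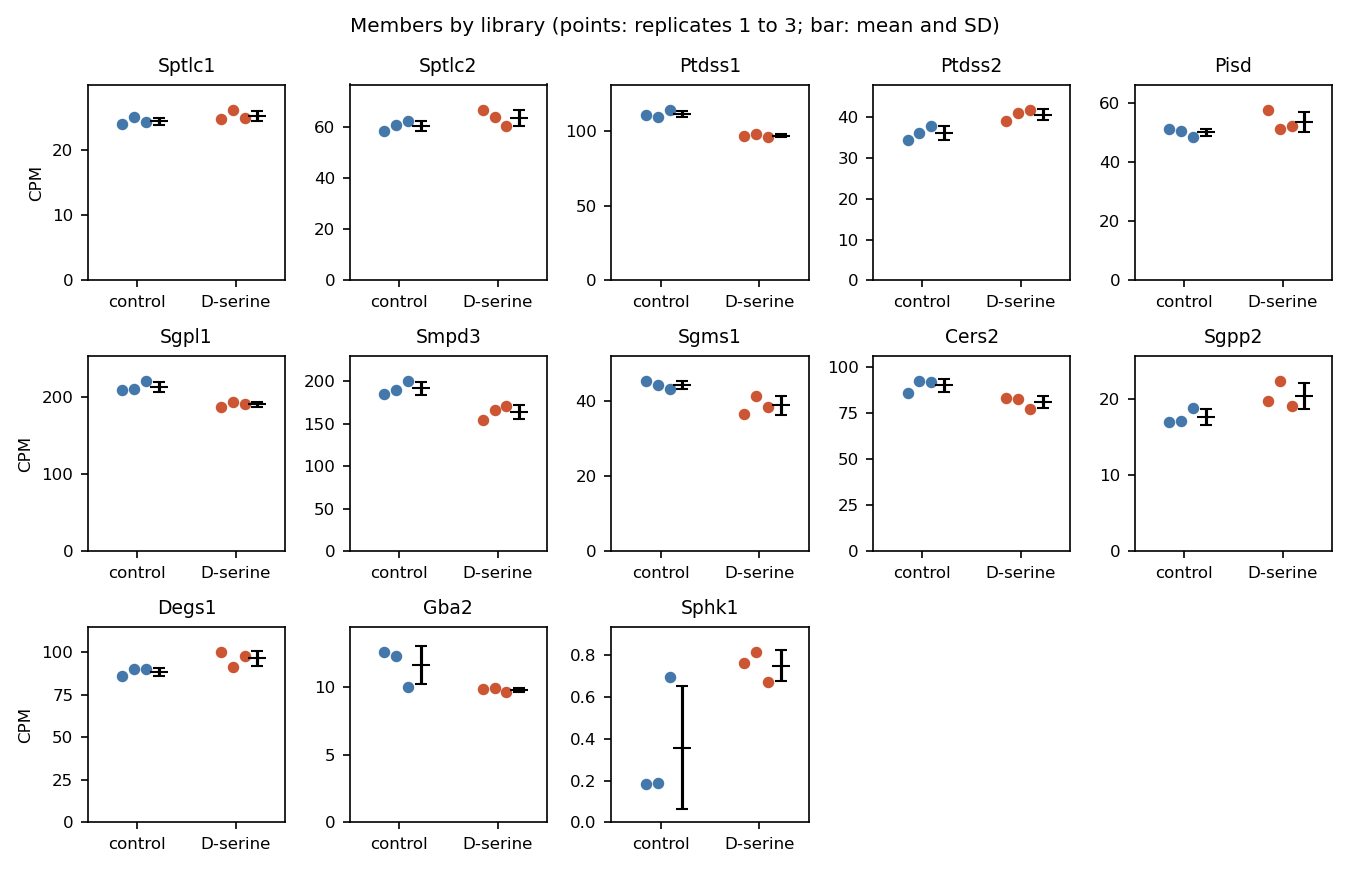
CPM of 13 members in each library (y axes from 0; blue control, orange D-serine, replicates 1 to 3 from left to right; bars are mean and SD). In Ptdss1, Smpd3 and Sgpl1 every D-serine point lies below every control point; for Sphk1 control replicate 3 lies at 0.699 CPM among the D-serine libraries.

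The 3 lower genes are longer than the median tested gene, and Smpd3 and Sgpl1 also than the median member. Their exonic lengths are 5148 bases for Smpd3, 4123 for Sgpl1 and 3424 for Ptdss1, where the median is 3554.5 bases over the tested members and 2834.5 over all tested genes. Length and log2 fold change were related by a Spearman's rho of -0.385 across the 34 members and -0.291 across all tested genes; without D-serine replicate 1 it was -0.27 and -0.147. These are descriptions across genes that share the same 6 libraries. With each library's length trend removed, 4 members passed, all lower: the same 3 genes and Cers2, against a background of 15.3%. All 3 log2 fold changes stayed negative, at -0.20 for Ptdss1, -0.17 for Smpd3 and -0.14 for Sgpl1.

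**Figure D5:**
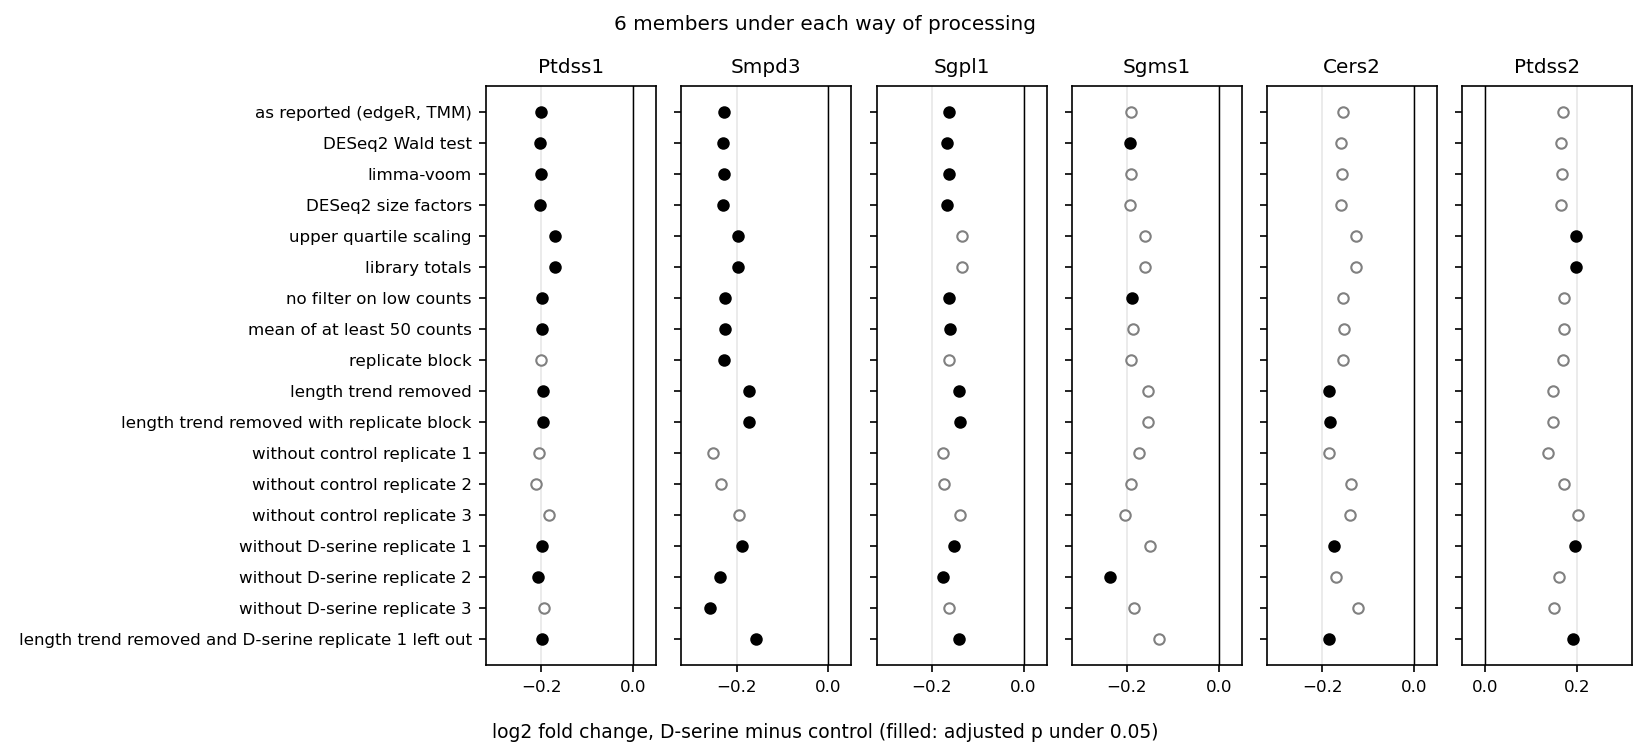
Log2 fold change of 6 members (x axes) under each way of processing (rows); filled points have an adjusted p under 0.05. Ptdss1, Smpd3, Sgpl1, Sgms1 and Cers2 lie below 0 and Ptdss2 above 0 in every row, whereas the calls are lost or gained between rows, and in each row without a control replicate all points are open.

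Promoter sequence was examined because some members were lower and others higher in all D-serine libraries. RefSeq windows (GRCm38.p6) were found for 33 of the 37 genes, 49 windows in all, and the 250 bases before each transcript start were searched on both strands. Ptdss1, Smpd3, B4galt6 and B4galnt1 had no window. Shown are Sgpl1 and Cers2, which were lower in all D-serine libraries, and Ptdss2 and Degs1, which were higher in all of them. Of these 4 genes only Sgpl1 passed the threshold. Capitals mark GC boxes (GGGCGG, or CCGCCC on the other strand), CCAAT boxes (CCAAT or ATTGG) and E-boxes (CACGTG). The windows are chr10:61147685-61147934 (minus strand), chr3:95314940-95315189 (plus), chr7:141131036-141131285 (plus) and chr1:182282196-182282445 (minus), each written 5′ to 3′.
Sgpl1: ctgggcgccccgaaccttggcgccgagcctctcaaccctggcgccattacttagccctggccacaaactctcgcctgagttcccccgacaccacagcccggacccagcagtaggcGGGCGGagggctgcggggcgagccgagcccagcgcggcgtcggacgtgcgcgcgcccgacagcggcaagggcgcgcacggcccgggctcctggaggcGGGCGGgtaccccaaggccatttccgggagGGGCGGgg
Cers2: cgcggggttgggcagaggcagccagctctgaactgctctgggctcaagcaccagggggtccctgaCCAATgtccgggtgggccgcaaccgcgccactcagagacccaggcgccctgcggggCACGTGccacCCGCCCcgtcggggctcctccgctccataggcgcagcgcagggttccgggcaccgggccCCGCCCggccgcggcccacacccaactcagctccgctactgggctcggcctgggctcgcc
Ptdss2: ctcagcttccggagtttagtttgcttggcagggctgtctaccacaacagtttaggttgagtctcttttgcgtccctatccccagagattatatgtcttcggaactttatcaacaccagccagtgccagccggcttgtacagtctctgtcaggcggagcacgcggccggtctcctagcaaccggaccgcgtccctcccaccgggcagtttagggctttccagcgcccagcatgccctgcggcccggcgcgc
Degs1: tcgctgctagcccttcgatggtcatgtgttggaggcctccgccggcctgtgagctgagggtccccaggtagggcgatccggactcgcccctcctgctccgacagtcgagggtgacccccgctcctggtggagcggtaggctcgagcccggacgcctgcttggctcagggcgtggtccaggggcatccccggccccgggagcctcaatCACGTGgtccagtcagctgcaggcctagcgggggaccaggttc
The window of Sgpl1 holds GC boxes alone, that of Cers2 holds all 3 motifs, that of Degs1 an E-box, and that of Ptdss2 none of them. An E-box was found in 8 of the 49 member windows (16.3%), against 8.14% of the 12844 windows of all tested genes. The 7 genes with one were Cers2, Cers6, Degs1, Sgms2, Sgpp2, Smpd2 and Sphk1, whose differences have both signs. GC boxes were in 53.1% of member windows and 56.6% of all, and CCAAT boxes in 30.6% and 35.1%. The composite element bound by ATF4 with C/EBP factors (TGATGNAA) was in 1 window (2.04% against 2.06%), the full cAMP response element (TGACGTCA) in 1 (2.04% against 2.73%), and a sterol regulatory element (TCACNCCAC) in 0 (background 1.04%). These matches describe letters in the window and not binding.

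Other genes of sphingolipid and phospholipid metabolism were taken from a separate list, of which 77 were in the table and 64 were tested. There, 5 passed (7.81%, background 9.74%), 1 higher and 4 lower, with a median log2 fold change of -0.013. A4galt, which makes the globoside Gb3, rose by 0.56 on the log2 scale (SE 0.119, edgeR adjusted p = 0.0157), with 4.79 ± 0.428 CPM in control and 7.08 ± 0.275 CPM in D-serine libraries (SD, n = 3 each). Fads3, a desaturase of sphingoid bases, fell by 0.24 (SE 0.056, edgeR adjusted p = 0.0222), with 52.0 ± 2.52 and 44.0 ± 1.40 CPM. In both genes the control and D-serine ranges were apart.

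The remaining 3 called genes of that list handle phospholipids. Etnk1, the ethanolamine kinase that opens phosphatidylethanolamine synthesis, had a log2 fold change of -0.16 (edgeR adjusted p = 0.0367). Ano6, a scramblase that exposes phosphatidylserine at the cell surface, also had -0.16 (edgeR adjusted p = 0.0483), and Atp11b, a flippase that returns it to the inner leaflet, -0.17 (edgeR adjusted p = 0.0483). All 3 lost their calls under upper quartile scaling, with library totals and with the length trend removed, where their log2 fold changes were -0.077, -0.0965 and -0.13. A4galt lost its call without control replicate 1, 2 or 3 or D-serine replicate 3 (adjusted p up to 0.0655), and Fads3 without control replicate 1 or 2 or D-serine replicate 3 (up to 0.114). Etnk1, Ano6 and Atp11b lost theirs in each of those 4 fits, with values up to 0.183, and Atp11b also without D-serine replicate 1 (0.0706). In that last fit the list still had 5 calls among 66 tested genes (background 12.5%), including a gene not named here. Among the small subunits and regulators of serine palmitoyltransferase, Sptssa had 0.15 (SE 0.068, edgeR adjusted p = 0.168), while Rtn4 and Zdhhc9 had 0.029 and 0.026. Rtn4 shares 20.4% of its exonic length with Eml6 on the opposite strand.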

How the data were processed

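Poly(A) RNA of 3 control and 3 D-serine samples of Neuro2a cells was sequenced as paired ends after stranded TruSeq library preparation, per the labels' protocols. The authors deposited raw counts per gene in 1 table with featureCounts columns, per the file headers, including each gene's exonic length. The submitters' processing notes name bcl2fastq, Trim Galore, HISAT2, featureCounts, Subread and DESeq2 with the builds GRCm38 and mm10. However, only 313 of 23128 genes compared had the same start in RefSeq's GRCm38.p6, so gene coordinates are given as deposited (1-based) and are not GRCm38 positions. Strand setting and handling of multi-mapping or overlapping reads are not given in the sources used here. Columns containing vehicle were matched to the control samples of the same number.

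Counts were tested with edgeR 4.0.16 in R 4.3.3: filterByExpr by group, TMM scaling, quasi-likelihood F test, no covariate, two-sided, Benjamini-Hochberg adjustment over all 13366 tested genes, threshold 0.05. SE is the log2 fold change divided by the square root of F. CPM and RPKM use TMM-adjusted library sizes. A gene lower in bulk RNA can reflect fewer cells expressing it or less RNA per cell, which cannot be told apart. A limit from a count of 0 covers counting error only. The scripts were tested on simulated data. Members and lists were chosen with earlier results of these data known. Named with full values were the enzymes acting on serine or its phospholipid headgroup, every called member, the 10 tested members with the smallest p, and called genes of the second list.

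Alternatives were DESeq2 1.42.0, limma-voom (limma 3.58.1), DESeq2 size factors, upper quartile scaling, library totals, no filter, a filter at a mean of 50 counts, a replicate block, omission of each library, and subtraction of every library's length trend (natural spline, 5 degrees of freedom) with and without the block. Removal of the length trend without D-serine replicate 1 was added after seeing the data. One item of the marker list is not reported here.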

Additional observations from a re-analysis of the deposited data

How the results depend on the processing

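Each fit kept the sign of the 3 called members and of the 5 called genes of the second list. That is no sign of stability, since those libraries do not overlap between the groups. Over all genes the calls were 298 with the replicate block and 2043 with the length trend removed, and leaving out 1 library gave 68 to 1699. The replicate numbers did not pair the libraries: same-numbered libraries correlated at -0.0687, 0.0197 and -0.0187 in their deviations from the group means, and not every library correlated best with its own number. With the replicate block 1 member was called (Smpd3, adjusted p = 0.0477; background 2.23%) and 1 gene of the second list, and with the block and the length trend removed 4 members (background 14.2%).

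Members called numbered 0 to 5 when 1 library was left out (background 0.501% to 12.5%), 0 to 1 of them higher and 0 to 4 lower. They were 5 (background 13.8%), with 1 higher, when the length trend was removed without D-serine replicate 1. Upper quartile scaling and library totals each gave 1 higher member, Ptdss2, where 914 and 944 of all 13366 tested genes were called higher. The members' median log2 fold change was -0.0025 and -0.0026 under these scalings and ran from -0.057 to 0.0043 when 1 library was left out. In the second list the calls were 3 under upper quartile scaling, 3 with library totals, 3 with the length trend removed without D-serine replicate 1, and 0 to 7 when 1 library was left out. Its median was 0.017 and 0.016 under these scalings, -0.001 with the length trend removed, and -0.030 to -0.0069 without 1 library. The cause of these shifts was not tested. At this depth the standard error of a tested member's log2 fold change was 0.042 to 0.478 (median 0.062), which limits what could be detected among weakly expressed members.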
